A study of Mus musculus with 2 samples.

Results

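The genes described here are the heat shock protein, DnaJ and cytosolic chaperonin genes of the mouse. They were measured in a mouse embryonic stem (ES) cell line with a deletion named for Williams-Beuren syndrome (WBS). Members were taken by name: every probe set assigned to a single gene whose symbol begins with Hspa, Hspb, Hspd, Hspe, Hsph or Hsp90, is a numbered Dnaja, Dnajb or Dnajc gene, or names a subunit of the cytosolic chaperonin (Cct genes and Tcp1), without Hspa5. This gave 78 genes with 195 probe sets, of 18194 genes with 34958 probe sets on the array. Symbols that match the rule but have no probe set of their own in the annotation used here are Hsp90ab1 and Dnajc19.

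Both arrays were made from total RNA of ES cells with the genotype Del1.3MbWBS, a deletion of 1.3 Mb. The labels name the samples as biological replicates 1 and 2 of this line; they do not state how many copies the deletion removes, which genes it covers, how many clones were used, or whether the replicates were separate cultures, so the spread between them may be technical. The cells were grown with LIF and 20% serum replacement on a layer of feeder cells, a feature that both samples share. The series set out to describe genes deregulated in WBS, but no line without the deletion was analysed here, so no gene can be called changed by the deletion and no test between conditions was made. The measurements show which members of the chaperone network were detected in these cells and how far the arrays differed.

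Heat shock proteins of the HSP70 family bind unfolded stretches of protein and release them in a cycle driven by ATP. DnaJ proteins, also called HSP40 or J-domain proteins, bring clients to HSP70 and trigger its ATPase, and nucleotide exchange factors such as the HSP110 proteins reset it. HSP90 acts later on nearly folded clients such as kinases and receptors, small heat shock proteins hold aggregating proteins without ATP, and the chaperonins are barrel-shaped complexes that enclose a client while it folds. Some of these genes are induced by heat through the factor HSF1, while others are made constantly in growing cells; ES cells, which divide rapidly and synthesise much protein, are known for high levels of several of them.

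Values are the deposited log2 values from RMA (robust multi-array average), and 1 unit is a factor of 2 in signal. They are given in the order replicate 1, then replicate 2. Where a gene had more than 1 probe set, its brightest one by the mean of the arrays was used. Background was set by 39 olfactory receptor genes, whose transcripts are not expected in ES cells: above background means that the mean and both array values exceeded the 95th percentile of these genes, which was 5.59 for the mean. Probes differ in how strongly they bind, so each value was set against this threshold and not against the value of another gene. With n = 2, each SD is the difference between the arrays divided by the square root of 2; the SD of the members ran up to 0.32 log2 units.

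Hspa1a and Hspa1b, the genes of the heat-inducible HSP70, lie next to each other, and their promoter windows, from 250 bases before to 50 after the RefSeq transcription start (build GRCm38.p6), differed at 4 of 300 positions, an identity of 98.7%. They are shown because this is the pair of members that are near-copies of each other; most of the window is not transcribed, and transcripts and probes were not compared here. Capitals mark the positions that differ.
Hspa1a (chr17:34972107-34972406, strand -): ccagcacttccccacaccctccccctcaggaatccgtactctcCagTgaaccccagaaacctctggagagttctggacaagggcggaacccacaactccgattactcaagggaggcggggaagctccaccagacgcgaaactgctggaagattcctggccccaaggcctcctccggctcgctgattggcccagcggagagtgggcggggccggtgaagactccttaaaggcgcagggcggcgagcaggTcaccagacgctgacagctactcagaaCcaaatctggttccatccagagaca
Hspa1b (chr17:34959189-34959488, strand -): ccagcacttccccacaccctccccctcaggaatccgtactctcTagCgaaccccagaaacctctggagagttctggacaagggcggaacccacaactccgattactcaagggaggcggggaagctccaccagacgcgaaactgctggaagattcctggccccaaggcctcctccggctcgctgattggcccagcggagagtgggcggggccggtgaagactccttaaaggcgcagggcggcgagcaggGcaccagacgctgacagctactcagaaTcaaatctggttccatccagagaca

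Of the 78 members, 72 (92.3%) were above background, against 68.4% of all genes. The median of the means was 9.74 for the members and 7.19 for all genes, and 47 members (60.3%) lay more than 3 log2 units above the threshold, as did 33.4% of all genes. The 6 members that did not pass were Hspa1l, Hspb3, Hspb9, Cct6b, Dnajb3 and Dnajb7. The number of probe sets moves with this count, because the highest of several is taken: members had 2.5 probe sets on average and all genes 1.92. Among genes with 1 probe set, 21 of 27 members were above background, against 53.4% of all such genes. All 18 members with 2 probe sets were above (77.6% of all such genes), as were the 14 with 3 (87.4%) and the 19 with 4 or more (93.5%). These shares are descriptions and were not tested.

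**Figure D1:**
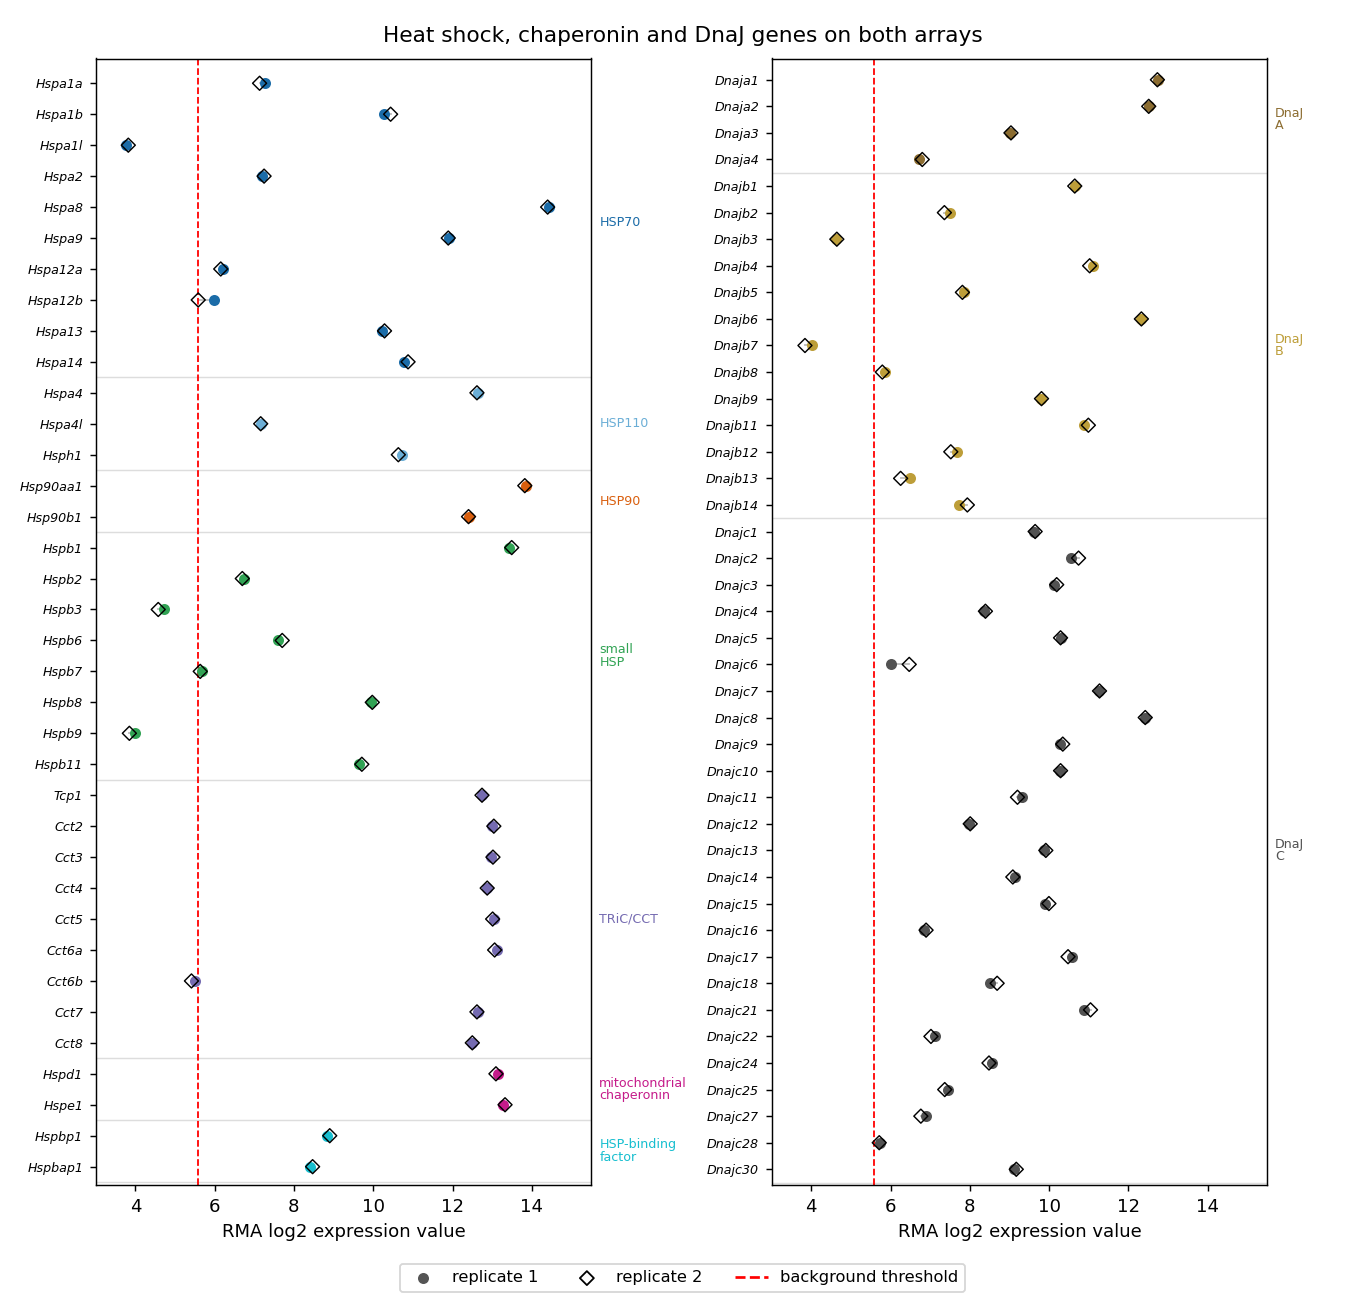
RMA log2 value of every member on replicate 1 (filled circles) and replicate 2 (open diamonds), grouped by class, with the background threshold of 5.59 for the mean as a dashed line. The 6 members left of the line on both arrays are Hspa1l, Hspb3, Hspb9, Cct6b, Dnajb3 and Dnajb7; values of different genes come from different probes and are not to be ranked.

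Marker transcripts of ES cells and of fibroblasts were present in the same RNA. All 12 ES cell markers on a list (from Pou5f1 to Lin28a) were above background, with means from 9.38 to 14.09. So were all 14 measured fibroblast markers, the usual cell of feeder layers, with means from 8.98 to 14.87. Of 5 blood cell markers 3 were above background, with means of the list from 3.92 to 9.33: the lysozyme gene Lyz2 (9.33 ± 0.010, SD, n = 2), Csf1r and Cd3e passed, while Ptprc, the pan-leukocyte gene, was at 4.05 ± 0.13 and did not. Of 3 trophoblast and 3 endoderm markers 1 each passed, Cdx2 and Sox17, by 0.15 and 0.23 log2 units. Many chaperone genes are known to be active in both cell types, and a member's value describes all cells whose RNA was taken. The part of feeder RNA in it was not tested, and fewer cells of a type cannot be told apart from less RNA per cell.

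In the HSP70 family, 9 of 10 members were above background. Hspa8, the constitutive cytosolic HSP70 that also strips clathrin from vesicles, was at 14.44 and 14.40. Hspa9, the HSP70 of the mitochondrial matrix that pulls imported proteins inwards, was at 11.91 and 11.89. With the brightest probe set both lay more than 5 log2 units above the threshold, and each array gave nearly the same value. The bright Hspa8 probe sets carry a mark (_a or _x) for probes shared between transcripts or genes. Without marked probe sets Hspa8 was at 8.64 and Hspa9 stayed at 11.90. With the median probe set value they were at 13.79 and 9.57. Hspa14, which works with Dnajc2 on the ribosome, was at 10.76 and 10.88, and Hspa13, an HSP70 relative of the microsomal fraction, at 10.23 and 10.28.

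The heat-inducible copies were both measured. Hspa1b was at 10.27 and 10.44 on its highest probe set, and its other 2 probe sets gave 10.09 and 10.13, and 9.59 and 9.58. Hspa1a was at 7.26 and 7.13 on its single probe set. The highest Hspa1b probe set was 0.17 log2 units higher on replicate 2 while that of Hspa1a was 0.12 higher on replicate 1, and the other Hspa1b probe sets differed by 0.040 and -0.0077, so the direction was not shared by the probe sets of these near-identical genes. The genes are known as near-identical copies, and the first 2 of the Hspa1b probe sets carry a mark (_a or _x) for probes shared between transcripts or genes. How much of each signal belongs to which copy is uncertain and was not tested.

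The remaining HSP70 genes are known for narrower use. Hspa2, which spermatocytes need for meiosis, was at 7.20 and 7.25 and above background. Hspa1l, the testis gene beside Hspa1a, was at 3.77 and 3.82 and was not. Its neighbours Hspa1a and Hspa1b were above background on the same arrays. The distant relatives Hspa12a (6.21 and 6.15) and Hspa12b, known from endothelium (5.98 and 5.59), passed. Hspa12b did so narrowly, since its replicate 2 value was close to that array's threshold of 5.58, and it fell short with the 99th percentile of the olfactory receptors.

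All 3 HSP110 genes, whose proteins exchange the nucleotide of HSP70, were above background: Hspa4 at 12.63 and 12.62, Hsph1 at 10.72 and 10.63 and Hspa4l at 7.17 and 7.16. Replicate 2 minus replicate 1 was between -0.086 and -0.012 log2 units for them. Of the HSP90 genes, Hsp90aa1, which encodes the inducible cytosolic HSP90 alpha, was at 13.86 and 13.82. Hsp90b1, the endoplasmic reticulum form also called GRP94, was at 12.42 and 12.40. Both were more than 6.8 log2 units above the threshold. The factors taken in by name alone were measured too: Hspbp1, a nucleotide exchange factor for HSP70, was at 8.84 and 8.90, and Hspbap1, named as a partner of a small heat shock protein, at 8.41 and 8.47.

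The small heat shock proteins divided. Hspb1, which encodes HSP25 (HSP27 in human), was at 13.43 and 13.49, and Hspb8, which acts with the co-chaperone Bag3 in the removal of aggregates, at 9.95 and 9.98. Hspb11, now known as a subunit of the intraflagellar transport machinery of cilia, was at 9.64 and 9.71. These 3 were more than 4 log2 units above the threshold. The members best known from muscle gave mixed calls: Hspb6 was at 7.59 and 7.70, Hspb2 at 6.74 and 6.70, Hspb7 at 5.67 and 5.64 and Hspb3 at 4.73 and 4.58. Hspb7 passed by 0.065 log2 units and Hspb3 did not pass. Hspb9, a testis gene, was at 3.996 and 3.85 and did not pass either, which left 6 of 8.

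The cytosolic chaperonin, called TRiC or CCT, is a double ring that folds actin and tubulin among other clients, and each ring holds 1 copy of each of its subunits. Genes for all of its general subunits were above background: Tcp1 at 12.73 and 12.74, Cct2 at 13.01 and 13.04, Cct3 at 12.98 and 13.02 and Cct4 at 12.87 and 12.87. The others were Cct5 at 13.06 and 13.01, Cct6a at 13.11 and 13.06, Cct7 at 12.65 and 12.61 and Cct8 at 12.48 and 12.50. These 8 genes lay within 12.48 to 13.11 on every array, although values of different probe sets do not give the ratio of their transcripts. Their differences, replicate 2 minus replicate 1, ran from -0.049 for Cct6a to 0.040 for Cct3. Cct6b, the form of the sixth subunit known from testis, was at 5.51 and 5.42, which was under the threshold by 0.13 log2 units. Without probe sets that carry the mark _a, _s or _x, Cct8 was at 3.15 and not above background, and Cct3 was at 5.75. The brighter probe set of Cct8 carries the mark _a. Cct6b passed where the threshold was made from the median of all probe sets or from unshared ones. The smaller chaperonin of mitochondria was measured through Hspd1 (HSP60, the barrel) at 13.14 and 13.09 and Hspe1 (HSP10, its lid) at 13.28 and 13.32.

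The DnaJ proteins made up 42 of the members, and 40 were above background. In class A, built like the bacterial DnaJ, all 4 were, Dnaja3 only through probe sets with the mark _a. Dnaja1 and Dnaja2, the abundant cytosolic partners of HSP70, were at 12.75 and 12.73 and at 12.53 and 12.51. Dnaja3, which acts in mitochondria, was at 9.02 and 9.04, and Dnaja4, a close relative of Dnaja1, at 6.72 and 6.80.

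Class B had 11 of 13 members above background. Dnajb1, the stress-inducible HSP40, was at 10.66 and 10.64, its relatives Dnajb4 at 11.10 and 11.02 and Dnajb5 at 7.86 and 7.81. Dnajb6, which holds back the aggregation of polyglutamine proteins, was at 12.31 and 12.33, and Dnajb2, best known from neurons, at 7.499 and 7.36. All 5 were above background on both arrays. Those of the endoplasmic reticulum lumen were Dnajb9 at 9.78 and 9.81 and Dnajb11 at 10.89 and 10.99, and those anchored in its membrane were Dnajb12 at 7.66 and 7.52 and Dnajb14 at 7.73 and 7.94. Dnajb14 was 0.20 log2 units higher on replicate 2, the largest difference of this class in that direction. The genes known from the male germline were near or under the threshold: Dnajb13, a protein of the sperm flagellum, was at 6.48 and 6.25, Dnajb8 at 5.87 and 5.79, Dnajb3 at 4.63 and 4.64 and Dnajb7 at 4.02 and 3.84. Dnajb13 and Dnajb8 passed.

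All 25 class C genes, which share little beyond the J domain, were above background with the brightest probe set. With the median probe set value 23 were, without Dnajc6 and Dnajc21, and with vomeronasal and taste receptors as reference 24, without Dnajc28. Dnajc30, the member that belongs to the WBS segment, encodes a mitochondrial protein known to bind ATP synthase. It was at 9.11 and 9.17 on its single probe set, 3.55 log2 units above the threshold, and the arrays differed by 0.062 log2 units. In RefSeq gene order it lies between Bud23 and Vps37d. Its transcript was measured in RNA that also held fibroblast marker transcripts, and the part from each cell type was not tested. Without a control line the value also does not show whether a copy was lost.

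Other class C proteins of mitochondria were Dnajc11, part of the complex that shapes the inner membrane folds, at 9.30 and 9.20, and Dnajc15, of the import machinery, at 9.88 and 9.99. All 7 members assigned to mitochondria, with Hspa9, Hspd1, Hspe1 and Dnaja3, were above background by at least 3.4 log2 units. Without its probe sets marked _a Dnaja3 was at 3.59 and not above, and with the median probe set value Dnajc11 was at 5.94. In the endoplasmic reticulum, Dnajc1 was at 9.61 and 9.65, Dnajc3, known as p58IPK, at 10.13 and 10.19, and Dnajc10, a disulfide reductase, at 10.28 and 10.29. Together with Hsp90b1, Dnajb9 and Dnajb11, they were above background by at least 4.0 log2 units with the brightest probe set. With the median probe set value Dnajc1 was at 6.26, Dnajc3 at 8.83 and Dnajc10 at 10.12. Every probe set of Hsp90b1 carries the mark _a. Dnajb12 and Dnajb14, of the same compartment, were above background by 2.002 and 2.245, and values of different probe sets are not to be ranked. Replicate 2 minus replicate 1 was -0.15 for Dnajb12 and 0.20 for Dnajb14, and between -0.014 and 0.099 for the 6 members of this compartment listed before them.

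Class C proteins that work on RNA, ribosomes and chromatin followed. Dnajc2, which binds the ribosome near the exit of the new chain, was at 10.55 and 10.74, and Dnajc21, a factor of ribosome assembly, at 10.89 and 11.04. Dnajc8, found in the spliceosome, was at 12.43 and 12.42, Dnajc17, also linked to splicing, at 10.59 and 10.48, and Dnajc9, a histone chaperone, at 10.27 and 10.34. Dnajc24, needed to make the diphthamide residue of elongation factor 2, was at 8.56 and 8.48. Dnajc2 and Dnajc21 were the class C members above 10 that differed most, by 0.19 and 0.15 log2 units, both higher on replicate 2. Their next-brightest probe sets differed by only 0.066 and 0.0081. The brightest and next-brightest probe sets of Dnajc2 carry the mark _s. Without marked probe sets Dnajc2 was at 6.09, while Dnajc21 stayed at 10.97. The other probe sets of Dnajc17 had means of 6.55 and 4.79.

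In vesicle traffic, Dnajc5, the cysteine string protein of secretory vesicles, was at 10.31 and 10.29, and Dnajc13, of endosomes, at 9.87 and 9.91. Dnajc6, the neuronal auxilin that helps Hspa8 uncoat clathrin, was at 6.02 and 6.47, and the arrays differed more for it than for any other member. Dnajc7, which links HSP70 and HSP90, was at 11.25 and 11.27, Dnajc14 at 9.14 and 9.08 and Dnajc18 at 8.52 and 8.69. Dnajc4 was at 8.35 and 8.39, Dnajc12 at 7.97 and 8.01, Dnajc25 at 7.45 and 7.37 and Dnajc22 at 7.11 and 7.02. Those less than 2 log2 units above the threshold were Dnajc16 at 6.84 and 6.90, Dnajc27, a small GTPase with a J domain, at 6.89 and 6.76, Dnajc22, Dnajc25, Dnajc6 and Dnajc28. Dnajc28 passed by 0.13 log2 units, at 5.73 and 5.71.

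Members known for use in testis or muscle were set apart by a list. It was drawn with earlier results of these data known, so the contrast given here is not independent of the calls. Of its 12 measured genes 6 were above background, against 66 of 66 other members. Of those others, 7 fell short under at least 1 other threshold or probe set rule. The 6 listed genes that passed were Hspa2, Hspb2, Hspb6, Hspb7, Dnajb8 and Dnajb13. The number of probe sets differed between these groups as well. Within members with 1 probe set, 5 of 11 listed genes and 16 of 16 others were above background, where 53.4% of all genes with 1 probe set were. All 6 members that did not pass had 1 probe set each.

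Single probe sets of a gene often gave unlike values. Of the 195 probe sets, 157 (80.5%) were above background, against 61.8% of all probe sets with 1 gene. Among the 51 members with several probe sets, 29 had all of them above background, and 22 (43.1%) had some above and some not, close to the 43.5% of all such genes. The median distance between the highest and the lowest probe set of a member was 2.498 log2 units. The widest was that of Cct8, with 12.48 and 12.50 on one probe set and 3.19 and 3.11 on the other. Hsp90aa1 had 3 probe sets with means from 13.40 to 13.84 and 2 with 5.30 and 5.25, and Dnajc21 had 10.97 and 9.74 beside 5.03, 4.55 and 4.23. Both arrays gave the same order of probe sets within each of these genes, so a member's value rests on the probe set used for it.

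**Figure D2:**
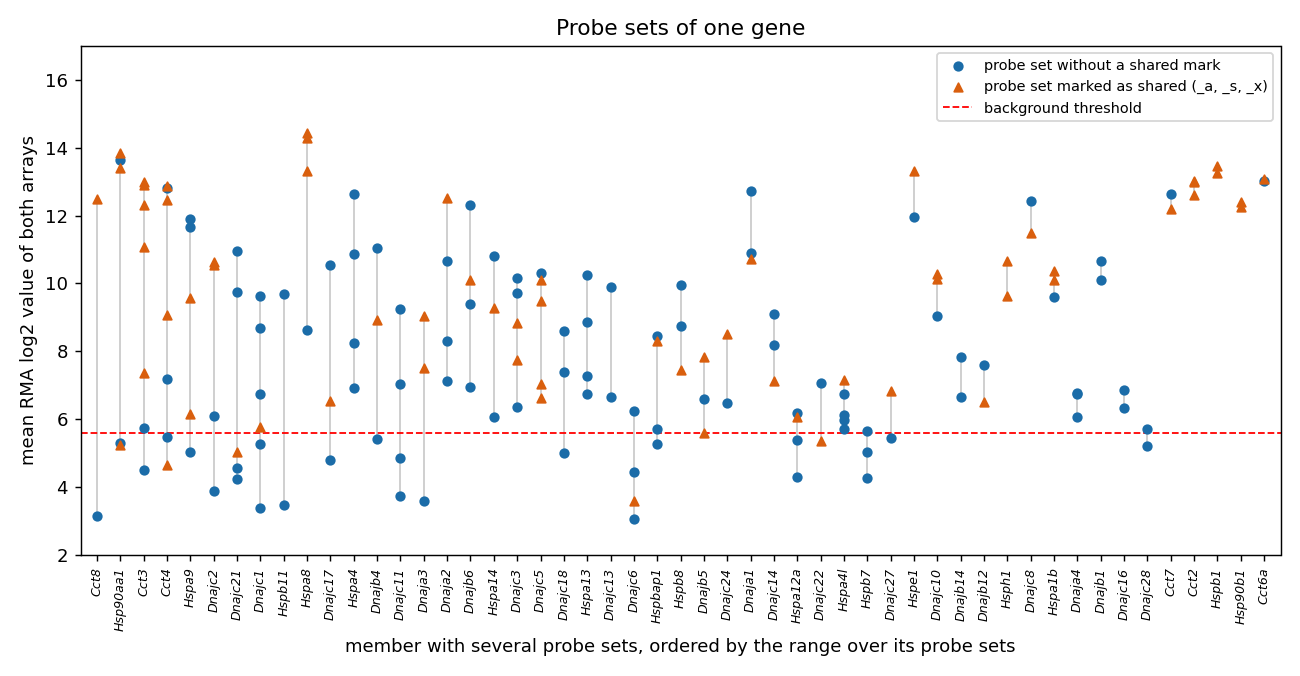
Mean RMA log2 value over both arrays of each probe set of the 51 members with several, ordered by the distance between the highest and the lowest; triangles are probe sets with the mark _a, _s or _x, circles those without, and the dashed line is the threshold of 5.59. Cct8, Hsp90aa1, Cct3 and Cct4, at the left, span more than 8 log2 units, and 22 members have probe sets on both sides of the line.

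The replicates matched closely. None of the 72 members above background on at least 1 array differed by 1.5-fold (0.58 log2 units) or more, where 0.0783% of all genes above background on at least 1 array did. Replicate differences had an SD of 0.109 log2 units over members and 0.114 over all such genes. The median of replicate 2 minus replicate 1 was 0.0054 for members and 0.015 for all genes, and 37 members were higher on replicate 2 and 35 on replicate 1. Members with means of 11 or more, 22 genes that include Hspa8, the 8 general CCT subunits, Hspd1 and Hspe1, had an SD of 0.035, against 0.055 for the 1436 genes of that level. The 11 members with means under 7 had an SD of 0.21, against 0.17 for 3312 genes. Their median absolute difference went the other way, with 0.076 against 0.110. At the levels between, the SD was higher for members: 0.109 against 0.101 for means from 7 to under 9, and 0.082 against 0.067 from 9 to under 11.

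Among the members with means under 7, Dnajc6 and Hspa12b differed most between the arrays. Dnajc6 was 0.45 log2 units higher on replicate 2 and Hspa12b differed by -0.39, being higher on replicate 1. Both lay outside the central 95% of all genes above background, which ran from -0.24 to 0.24. By definition some of all genes lie outside that range, and it pools all levels. For all genes with means under 7 it ran from -0.37 to 0.32, which Hspa12b passed only slightly. For Dnajc6 a second probe set, under the threshold, differed by 0.47 in the same direction (4.19 and 4.66), while the other 2 differed by -0.29 and 0.33. Hspa12b has 1 probe set. Among members known as heat-inducible, with no list behind the choice, Dnajb1 differed by -0.012, Hsph1 by -0.086, Hspa1b by 0.17, Hspa1a by -0.12, Hspb1 by 0.061, Hsp90aa1 by -0.041, Hspd1 by -0.050 and Hspe1 by 0.040. Apart from Dnajc6 and Hspa12b, the members lay inside the central range of all levels. Dnajb13 was closest to its edge with -0.23, but was well inside the range of genes with means under 7.

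**Figure D3:**
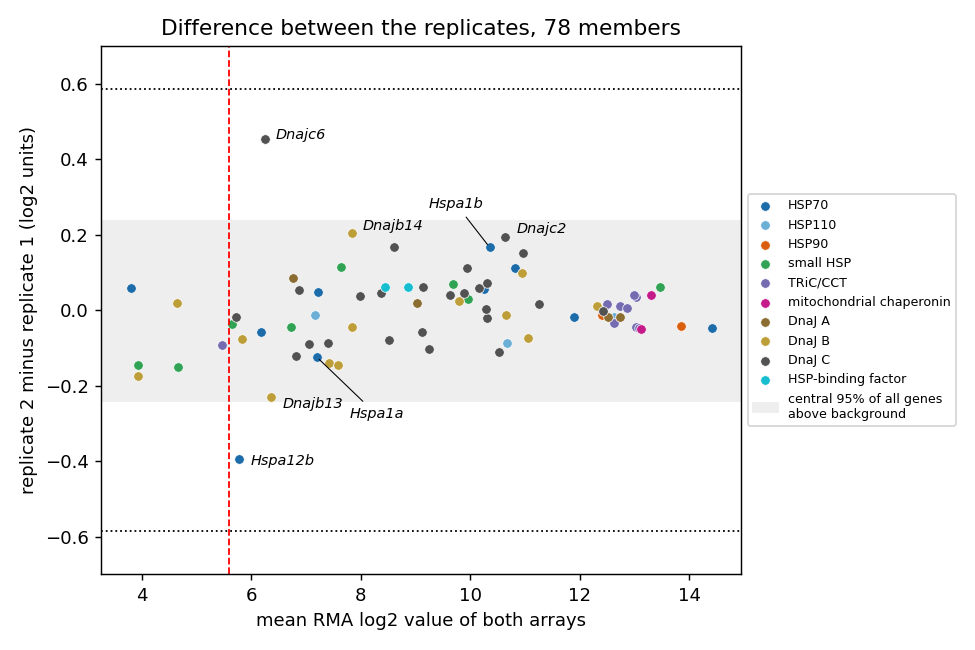
Replicate 2 minus replicate 1 in log2 units against the mean of both arrays for the 78 members, coloured by class; the grey band holds the central 95% of all genes above background (-0.24 to 0.24), dotted lines mark 1.5-fold and the dashed line the background threshold. Dnajc6 (0.45) and Hspa12b (-0.39) are the points outside the band, and no member reaches 1.5-fold.

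Outside the rule, 38 of 39 measured co-chaperones and regulators on a list of 43 were above background, again beside 68.4% of all genes. Hsf2, a heat shock transcription factor, was at 6.58 and 6.53, and Hsf4, known from the lens, was not above background at 5.08 and 5.02. Hspa5, or BiP, the HSP70 of the endoplasmic reticulum, was at 12.83 and 12.82, and its relative Hyou1 at 9.9995 and 9.97. Stip1, which hands clients from HSP70 to HSP90, was at 10.48 and 10.42, and Bag1, an exchange factor, at 10.99 and 11.03. Hsf1 had no probe set of its own in the annotation used here. Chosen after their values were seen, the 6 genes for prefoldin, which feeds actin and tubulin to the CCT ring, were all above background with the brightest probe set, with Vbp1 at 11.54 and 11.54. Pfdn5 was not with the median probe set value, at 3.30. Above background too was Serpinh1, the collagen chaperone HSP47, at 12.50 and 12.50, in RNA that also held the fibroblast collagen transcripts; which cells it came from was not tested.

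Gene position and promoter sequence add features that the rule did not use. The 78 members lie on 19 chromosomes, and 5 of them have another member as next protein-coding neighbour in RefSeq order: Hspa1b, Hspa1a and Hspa1l in a row, and Hspd1 beside Hspe1, which are read in opposite directions from a shared stretch. RefSeq promoter windows of 300 bases (GRCm38.p6) were found for 65 members. The 59 that were above background had a median of 25 CG dinucleotides per window, and the 6 that were not had 12. Over all genes on the array with a window, the medians were 20 for the 10019 above background and 6 for the 4434 not above.

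A heat shock element, the binding site of HSF1, was searched as 3 units in the form GAANNTTCNNGAA on either strand. It was in the windows of 4 of 65 members (6.15%), Hspd1, Hspe1, Hsph1 and Dnajb6, and in those of 0.662% of all 27025 genes with a window. The sequences are shown since they belong to heat shock genes of different classes, with the match in capitals. Hspd1 and Hspe1 hold the same stretch read from opposite strands, in which matches on both strands overlap.
Hspd1 (chr1:55088047-55088088, strand -): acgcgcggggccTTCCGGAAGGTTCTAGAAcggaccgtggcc
Hspe1 (chr1:55088047-55088088, strand +): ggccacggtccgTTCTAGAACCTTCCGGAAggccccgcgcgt
Hsph1 (chr5:149636276-149636312, strand -): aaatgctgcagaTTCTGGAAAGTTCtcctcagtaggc
Dnajb6 (chr5:29735840-29735876, strand +): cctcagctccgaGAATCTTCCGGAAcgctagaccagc
These genes were at 13.14 and 13.09, 13.28 and 13.32, 10.72 and 10.63 and 12.31 and 12.33. Other members known as heat-inducible, such as Dnajb1 and Hspa1b, had no such letters in this window, which says nothing about HSF1 there.

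The endoplasmic reticulum stress element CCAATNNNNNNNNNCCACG, also searched on both strands, was found in 2 of 65 members (3.08%), Hsp90b1 and Dnajc3, against 0.137% of all genes with a window. Both encode chaperones of that compartment, and Hsp90b1 held it at 2 places, once on each strand; capitals mark the match.
Hsp90b1 (chr10:86705626-86705668, strand -): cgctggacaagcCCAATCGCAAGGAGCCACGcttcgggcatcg
Hsp90b1 (chr10:86705521-86705563, strand -): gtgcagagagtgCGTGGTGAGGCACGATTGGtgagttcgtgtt
Dnajc3 (chr14:118937815-118937857, strand +): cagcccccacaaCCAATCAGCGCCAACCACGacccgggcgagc
Hsp90b1 and Dnajc3 were at 12.42 and 12.40 and at 10.13 and 10.19. A match of letters is a description and not a site, and no measurement of binding was used here.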

How the data were processed

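The authors deposited log2 expression values for each probe set, which the submitters' processing notes attribute to RMA; the version, and which arrays were normalized together, are not given in these sources. RMA subtracts background, gives the arrays near-equal distributions and summarises the probes of a set, which hides any shift common to most genes. An array has no sequencing depth; the number of arrays limits precision.

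Of 45101 probe sets, 34958 had 1 gene symbol in the platform annotation, 932 had several and 9211 had none here; unused columns of values numbered 0. All 78 members matched the RefSeq gene table by identifier, and 0 symbols differed. The highest probe set stood for each gene. No test was made, since both arrays belong to 1 group; members are described by counts and medians beside those of all genes. Every member was named, class by class, with the first 6 measured co-chaperones of the list and any not above background. The members and lists were chosen with earlier results of these data known. Alternatives were other background thresholds, other probe set rules, normalizations and leaving out each array. The code for the calls was run on simulated data with a single probe set per gene and expressed genes well above silent ones. Expressed genes near the threshold and the choice of the highest probe set were not covered by it. Python 3.11.15 with pandas 2.3.3, NumPy 2.4.6 and statsmodels 0.14.6 was used. Promoter windows came from RefSeq (GRCm38.p6).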

Additional observations from a re-analysis of the deposited data

How the results depend on the processing

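The 72 of 78 members above background became 70 at the 99th percentile, beside 67.1% of all genes. With vomeronasal and taste receptors as reference 67 were above (61.5% of all genes), and with each gene's median probe set value 70 (66.9%). With probe sets that lack the mark _a, _s or _x, 65 of 72 were above (69.4% of all such genes). The count stayed 72 with either array left out (69.3% of all genes). Counting probe sets, with the threshold taken over the olfactory receptors' probe sets, gave 158 of 195 (62.7% of all probe sets with 1 gene). Hspb7 was lost under 3 of these settings, Hspa12b under 2, Dnajb8, Dnajc28, Hspa12a, Dnajc6, Dnajc21, Cct8 and Dnaja3 under 1 each, and Cct6b was gained under 2. For Cct8 and Dnaja3 the loss follows from leaving out their brighter probe sets, which carry the mark _a. The count of co-chaperones, 38, ran from 29 of 31 to 38 of 39. The count of members past 1.5-fold was 0 with each array centred, with loess, with either probe set rule and with no filter; at 2-fold no other count was possible. The SD of the difference, 0.109, ran from 0.104 to 0.122, and its median, 0.0054, from -0.0056 with loess (fraction 0.3) to 0.0077. Under the median probe set value, the levels of 49 of the 51 members with several probe sets moved by more than their SD, that of Dnajc21 from 10.97 to 5.03. A median cannot exceed the brightest probe set, so these levels could only stay or fall. The SD here is that between the arrays and does not measure the spread of probe sets. No paired analysis was possible because the 2 samples form a single group. Signal over background limits the members near the threshold: silent and weakly transcribed genes cannot be told apart there.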

Other observations

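Dnajc19, a DnaJ protein of the mitochondrial import motor, has 3 probe sets that the annotation assigns to it together with its pseudogene, so it was not counted as a member. They were at 10.58 and 10.71, at 6.14 and 5.87, and at 5.38 and 5.26 on replicates 1 and 2, and the first 2 of these were above background.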
